A study of Saccharomyces cerevisiae with 8 samples.

Results

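The chromosomal occupancy of Bdp1 was set against that of Brf1 in budding yeast, Saccharomyces cerevisiae, after 30 min of rapamycin. Both proteins are subunits of TFIIIB, the initiation factor of RNA polymerase III (Pol III). The comparison used 2 of the 8 deposited arrays, 1 for each protein. The members are all array regions that carried a value on both arrays, 5609 of 6399 regions. The gap of a region is its Bdp1 value minus its Brf1 value on the log2 scale, after each array was centred on the median of all its regions. A gap of 1 therefore stands for a relative signal 2-fold higher for Bdp1, and a gap of 0 for equal distance from the 2 array medians.

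The series mapped 4 proteins of the Pol III machinery by chromatin immunoprecipitation and hybridisation to arrays of intergenic regions, in untreated cells (0 min) and after 30 min of rapamycin at 0.2 ng per µl. Bdp1, Brf1 and the TFIIIC subunit Tau95 carried a 13myc tag and the polymerase subunit C160 a 3HA tag. Cells grew exponentially in rich YPD medium, and the samples named untreated received no drug. Every slide carried, per the labels, immunoprecipitated DNA of an otherwise wild-type tagged strain in Cy5 and of a tagged strain lacking MAF1 (Dmaf1) in Cy3. The deposited table holds 1 value per region and array, and the labels leave unsaid which channel or reference it represents, so no value was assigned to a strain. Triplicates are stated in the series' design, but their separate values were not used here. Whether a value is a mean over them or a single hybridisation is not known for the Brf1 array at 30 min, whose low values move in single whole steps. With 1 value per protein and time, no difference has a replicate check, no test or error could be given, and every comparison describes these arrays. The number of arrays limits the precision, as does the dimness of the Brf1 array at 30 min. Any effect of that dimness on the gap cannot be told apart from one of rapamycin.

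On a tRNA gene, TFIIIC binds promoter elements inside the transcribed region and places TFIIIB just upstream of the start site. TFIIIB consists of the TATA-binding protein, Brf1, which is related to the Pol II factor TFIIB and bridges to TFIIIC and the polymerase, and Bdp1, which joins last and locks the complex on DNA. Rapamycin inhibits the TOR kinase complex 1, and yeast cells so treated repress Pol III transcription through the repressor Maf1, which binds the polymerase and also Brf1. Long terminal repeats (LTRs) are remnants of Ty retrotransposons, several of which insert upstream of Pol III genes, and Ty3 integrase is known to use TFIIIB for this.

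The Brf1 array at 30 min was dim and incomplete beside the others. It gave values for 5760 regions, where the Bdp1 array gave 6039 and the Brf1 array at 0 min 6277. Its values below the median moved in coarse steps. Once taken out of the log, 93.9% of these 2873 values fell on multiples of 1/157 to within 0.05 steps. For a step fixed in advance 10% would do so by chance, but this step was picked by its fit to the same values. The same search gave 34.7% for Bdp1 and 26.1% for Brf1 at 0 min, and 9.04% for Bdp1 at 30 min. Such steps act on low values most. The interquartile range was taken over regions outside Pol III genes, LTRs and regions whose next gene is a tRNA gene. It was 1.77 for Bdp1 and 1.64 for Brf1 at 30 min, and 1.72 and 1.27 at 0 min. Raw array medians were 0.11 and 0.09 at 30 min, so the centring moved the gap little. Bdp1 and Brf1 correlated with Pearson's r = 0.737 over the 241 regions of tRNA genes at 30 min and with r = 0.859 over 245 at 0 min. These are descriptions across regions of the same arrays, and regions are not independent replicates.

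Bdp1 was higher than Brf1, relative to each array's median, at tRNA genes, at regions beside them and at LTRs. The median gap at 30 min was 0.57 over 241 regions named for tRNA genes, a ratio of 1.48, with quartiles of -0.22 and 1.31. It was 0.54 over 226 regions named for an open reading frame (ORF) whose next gene is a tRNA gene, and 0.46 over 233 LTR regions. The other 4823 ORF-named regions had a median of -0.0044 with quartiles of -0.54 and 0.52. All 5609 regions together had a median of 0.04. The median tRNA gap thus lay just above the upper quartile of the other ORF-named regions, while the ranges of the classes overlapped widely.

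At tRNA genes, Bdp1 was 2-fold or more higher in 88 of 241 regions (36.5%) and Brf1 in 17 (7.05%). Over all regions 12.7% passed this threshold with Bdp1 higher and 9.38% with Brf1 higher. The share with Bdp1 higher was 31.9% beside tRNA genes (72 regions) and 31.8% at LTRs (74 regions). For Brf1 the shares were 7.96% (18 regions) and 4.29% (10 regions). In the other ORF-named regions Bdp1 was the higher in 468 and Brf1 in 472, a balance that the centring sets, since these regions make up most of each array. It was 519 and 424 when centred on ORF-named regions away from Pol III genes, and 420 and 540 after quantile normalization. A gap above 0 was found in 157 tRNA regions (65.1%), where all regions gave 52.0%. The excess at tRNA genes and LTRs was therefore on the Bdp1 side, and with this centring their share with Brf1 higher was under that of all regions. After quantile normalization that share was 12.9% at tRNA genes and 11.1% over all regions. Scaling of the arrays also moved the split. Of the tRNA regions past 2-fold, 83.8% had Bdp1 higher, against 66.3% after quantile normalization and 71.6% after scaling to equal spread. At LTRs the split was 88.1% and, after quantile normalization, 75.3%.

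**Figure D1:**
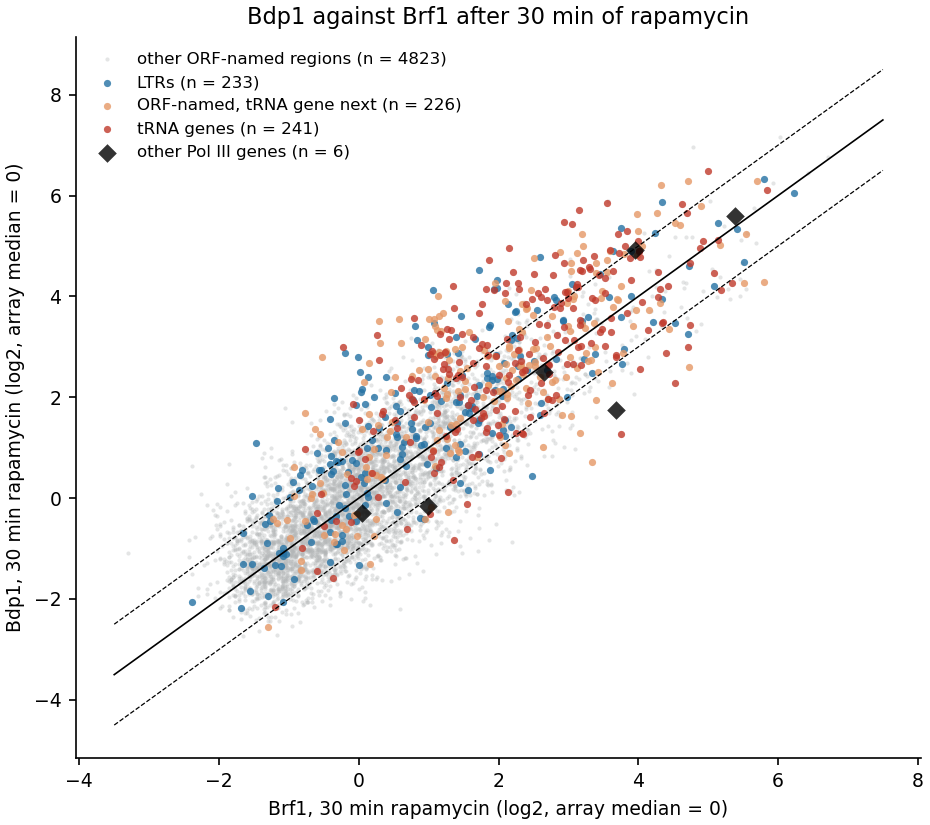
Each point is a region, with its Brf1 value (x axis) and Bdp1 value (y axis) at 30 min on the log2 scale, each array's median at 0; the solid line marks equal values and the dashed lines a 2-fold difference. The 88 tRNA genes above the upper dashed line outnumber the 17 below the lower one, while 468 other ORF-named regions lie above and 472 below, a balance set by the centring.

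The same subtraction in untreated cells gave a median near 0 at tRNA genes with this centring. It was -0.0048 over 245 regions at 0 min, and ran from -1.20 with equal spread to 0.18 when centred on ribosomal protein genes. As centred here, 33 regions were 2-fold or more higher for Bdp1 and 31 for Brf1, where 5.76% and 8.18% of all regions passed. The gap was above 0 in 121 of the 245 (49.4%), where all regions gave 44.5%. At LTRs the median at 0 min was 0.11 and beside tRNA genes 0.16. As centred, regions of tRNA genes past 2-fold were thus about as frequent in both directions before treatment, and mostly on the Bdp1 side after it. Region by region, the gap at 30 min minus that at 0 min had a median of 0.52 at tRNA genes, 0.44 at LTRs, 0.38 beside tRNA genes and 0.09 at other ORF-named regions. It reached 1 or more in 64 of 241 tRNA regions (26.6%) and -1 or less in 10, where all regions gave 10.6% and 5.32%. The gap was the larger at 30 min in 177 of them (73.4%), where all regions gave 58.5%. The median difference at tRNA genes ranged from 0.32 to 1.47 over the scalings and filters tried. The low end came from centring on ribosomal protein genes and the high end from scaling to equal spread. No replicate shows how far a gap moves between repeats of the same condition.

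**Figure D2:**
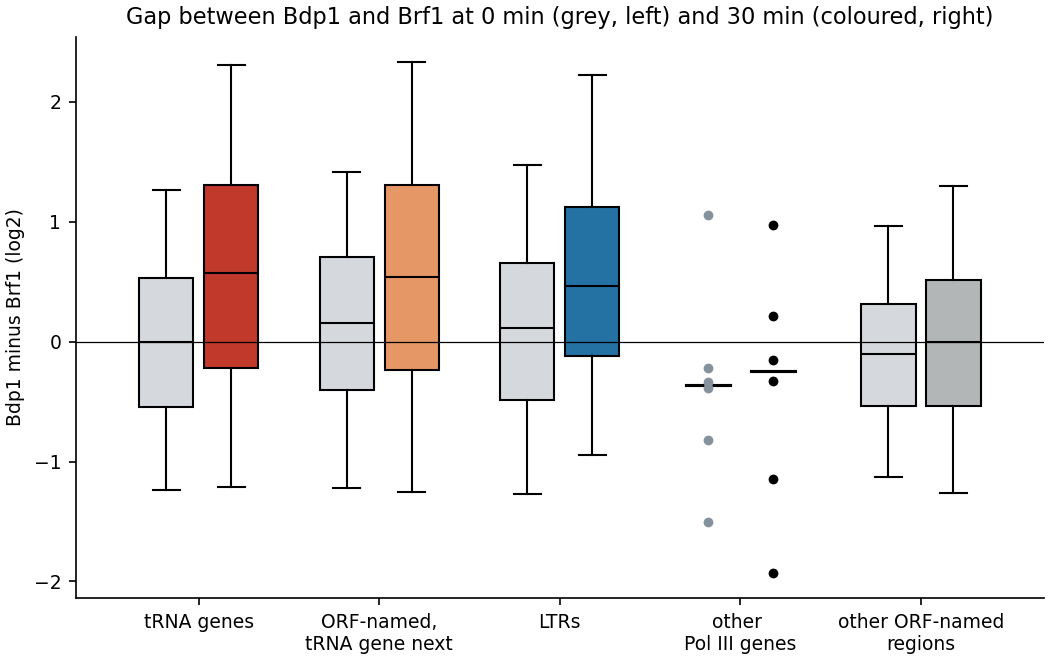
Gap between Bdp1 and Brf1 on the log2 scale at 0 min (grey) and 30 min (coloured) for 5 classes of region; boxes span the quartiles with the median as a line, whiskers run from the 5th to the 95th percentile, and the 6 other Pol III genes are drawn as points with their median. The median of tRNA genes lies at -0.0048 at 0 min and at 0.57 at 30 min, and that of other ORF-named regions near 0 at 30 min.

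The levels behind these gaps differed more for Brf1 than for Bdp1 between the times. The median Bdp1 value of tRNA regions was 3.20 at 0 min and 2.85 at 30 min, and the median Brf1 value 3.07 and 2.23. The region-wise difference between times had a median of -0.23 for Bdp1 and -0.83 for Brf1. For C160 it was -0.42 and for Tau95 0.15. On the LTRs the corresponding medians were -0.09 for Bdp1 and -0.54 for Brf1. The gap at 30 min and the Brf1 difference share the Brf1 array at 30 min, so neither is independent of the other. Between the times, tRNA regions correlated with r = 0.957 for Bdp1 and r = 0.762 for Brf1. With 1 such array, its quality and the treatment cannot be told apart in the Brf1 difference.

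Sorting tRNA regions by their gap shows the levels on both sides of the threshold. In the 88 regions with Bdp1 2-fold or more higher, the median of Bdp1 was 3.96 at 0 min and 3.81 at 30 min, while that of Brf1 was 3.40 and 1.79. Brf1 was at least 2-fold lower at 30 min than at 0 min in 60 of them, and Bdp1 was at least 2-fold higher in 0. Brf1 was also at least 2-fold lower in 37 of the 136 tRNA regions within 2-fold. The groups were sorted by these same 30 min arrays, so the sorting itself favours low Brf1 in the 88 and dim Bdp1 in the 17. In 23 of the 88 the gap was already past 2-fold at 0 min, where 5.76% of all regions were, and in 22 it had the opposite sign there. The class thus mixed regions with a gap before treatment and regions where it stood only at 30 min. In the 17 regions with Brf1 higher, Bdp1 stood at 1.33 and 1.27 and Brf1 at 2.36 and 2.35 at 0 and 30 min. These were dimmer regions on the Bdp1 array at both times. At 0 min 7 of them had Brf1 2-fold or more higher, where 8.18% of all regions did.

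The arrays of the other proteins give a readout outside the subtraction. C160 differed between 30 and 0 min by a median of -0.83 in the 88 tRNA regions with Bdp1 higher, by -0.32 in the 136 regions within 2-fold and by 0.45 in the 17 with Brf1 higher. For Tau95 these medians were 0.0072, 0.26 and 0.43. Where Bdp1 exceeded Brf1 most, the polymerase value was thus the furthest below its value at 0 min. The order was the same at LTRs (-0.32, 0.03 and 0.48) and beside tRNA genes (-0.60, -0.25 and 0.21). Other ORF-named regions also had it (-0.14, 0.04 and 0.29). The median C160 value at 0 min differed between the tRNA groups too, at 3.25, 2.97 and 1.62. Whether this bears on the order was not tested. Across tRNA regions the gap at 30 min correlated with the C160 difference with r = -0.504 and with the Tau95 difference with r = -0.311, while over all regions the value for C160 was -0.36. All these points share arrays, probes and base composition, and they are no independent samples. Whether probe properties account for the relation was not tested.

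The 8 largest gaps among tRNA genes ranged from 2.53 to 3.23, chosen from the 221 tRNA regions with a value of 1 or more on at least 1 of the 2 arrays. In a tRNA gene's name, the letter after t is the amino acid, the bases in brackets are the anticodon and the letters that follow mark the chromosome and copy. The region of tL(UAA)D, a leucine tRNA gene, stood at 3.00 for Bdp1 and -0.22 for Brf1, a ratio of 9.37. Before treatment its values were 2.84 and 2.17. Bdp1 was bright at both times, while Brf1 lay below its array's median only after rapamycin. The arginine gene tR(ACG)K stood at 3.23 for Bdp1 and 0.26 for Brf1, with 3.51 and 3.03 at 0 min. The glutamate gene tE(UUC)K had values of 4.72 and 1.86 at 30 min, and its gap at 0 min was already 1.42.

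The glycine gene tG(GCC)J1 turned from a gap of -0.33 at 0 min to 2.84 at 30 min, with Bdp1 at 4.0 and then 4.20 and Brf1 at 4.33 and then 1.35. Its sign differed between the times, unlike that of the other 7. The proline gene tP(UGG)O3 stood at 4.96 for Bdp1 and 2.15 for Brf1, and at 4.99 and 4.59 before treatment. The leucine genes tL(UAA)K and tL(CAA)D had gaps of 2.77 and 2.57, with gaps of 0.53 and 1.15 at 0 min. For C160 the difference between the times was -1.24 at tL(UAA)K, -1.65 at tL(CAA)D and -1.42 at tP(UGG)O3. The polymerase value was thus also lower in these 3 regions, and it differed by -0.90 at tL(UAA)D and by -0.54 at tE(UUC)K. It was nearly level at tG(GCC)J1 (0.08), tR(ACG)K (-0.06) and tV(AAC)G3 (-0.17). In tV(AAC)G3, a valine gene, the gap of 2.53 was nearly that of untreated cells, 2.43, with Brf1 at 2.93 and 2.92.

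Among the 8 lowest gaps, Brf1 exceeded Bdp1 by up to 5.57-fold, at the valine gene tV(CAC)H. Its Bdp1 value was 1.27 and its Brf1 value 3.75, and at 0 min they were 1.33 and 2.36. The tryptophan gene tW(CCA)M stood at 2.28 for Bdp1 and 4.52 for Brf1, against 2.15 and 2.76. At both genes Bdp1 was level between the times and Brf1 was higher under rapamycin by more than 1. The proline gene tP(AGG)N and the glycine gene tG(CCC)O lay below the Bdp1 array's median, at -0.83 and -0.11, and at 1.36 and 1.55 for Brf1. The phenylalanine gene tF(GAA)H2 gave 0.12 for Bdp1 and 2.14 for Brf1. These 3 regions thus had almost no Bdp1 signal over the array's median. The remaining 3, tG(UCC)O, tA(AGC)P and tH(GUG)G2, were bright on both arrays, with Bdp1 between 2.56 and 2.99 and Brf1 between 4.03 and 4.70. All 8 had a negative gap at 0 min as well, from -1.54 to -0.54.

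**Figure D3:**
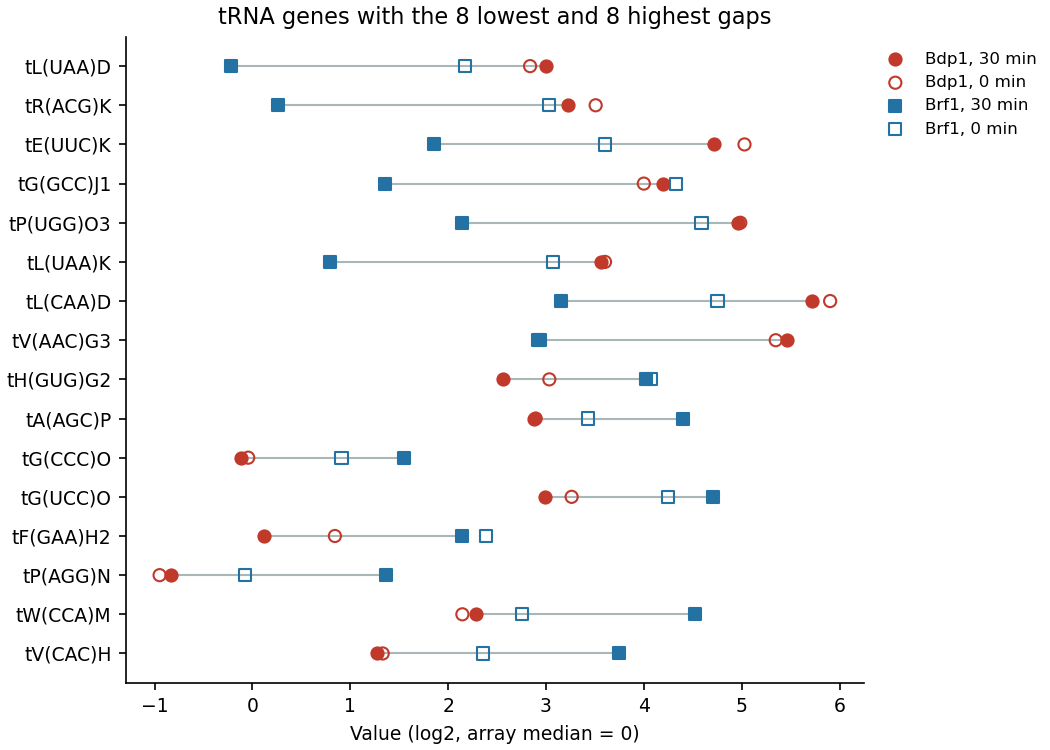
Bdp1 (circles) and Brf1 (squares) values on the log2 scale, array median at 0, for the 16 tRNA genes with the 8 lowest and 8 highest gaps; filled symbols are 30 min, open symbols 0 min, and the grey line joins the values at 30 min. In the upper 8 genes the filled Brf1 squares stand well left of the Bdp1 circles, by 3.23 at tL(UAA)D, and in the lower 8 to their right, by 2.48 at tV(CAC)H.

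Grouped by amino acid, 19 of 20 tRNA families had a median gap above 0 at 30 min, and 9 of 20 did at 0 min. The median at 30 min exceeded that at 0 min in 18 families. Asparagine genes had the highest median, 1.45 over 9 regions, of which 6 were past 2-fold with Bdp1 higher and 0 with Brf1 higher. Lysine followed with 1.08 over 18 regions (11 and 0) and arginine with 0.95 over 15 (6 and 0). Bdp1 was the higher subunit in most regions of these 3 families. Their medians at 0 min were 0.12, 0.25 and 0.35. Families at the low end were aspartate at 0.02, proline at 0.03 and cysteine at 0.10. The signs of these, and of alanine at 0.18 and phenylalanine at 0.29, turned under 1 or more of the scalings tried, so no direction is given for these 5 families.

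Histidine was the family with a negative median, -0.50 over 5 regions, and it stayed between -0.78 and -0.45 under the scalings tried. At 0 min the family's median was -0.43 over 6 regions, so Brf1 was already the higher subunit in the median before treatment. The lowest histidine gap at 30 min was -1.46 at tH(GUG)G2 and the highest -0.16 at tH(GUG)M. All 5 regions thus had Brf1 above Bdp1, although 1 alone was past 2-fold. At 0 min tH(GUG)E1 and tH(GUG)M had gaps of 0.80 and 1.08, so their signs were opposite before treatment. For the sixth, tH(GUG)H, no Brf1 value was given at 30 min, and its Bdp1 value was 0.32.

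The spread within a family was wide, and no family was uniform apart from the sign of histidine. Asparagine genes ran from -0.82 at tN(GUU)F to 2.40 at tN(GUU)N2, though they share the anticodon. At tN(GUU)N2 Bdp1 stood at 3.77 and Brf1 at 1.37, and at tN(GUU)F at 0.88 and 1.70. The gene tN(GUU)F thus differed from the others also by a dim Bdp1 signal. Among lysine genes, tK(CUU)G2 had the highest gap, 2.15, with Bdp1 at 3.04 and Brf1 at 0.89. The lowest was -0.84 at tK(UUU)D, which was below the median of both arrays at -1.44 and -0.60. A bright exception was tK(CUU)J, with Bdp1 at 4.46 and Brf1 at 5.08, a gap of -0.61. Methionine genes, all with anticodon CAU, ran from -1.08 at tM(CAU)M to 2.32 at tM(CAU)P.

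Isoacceptors, which carry the same amino acid on different anticodons, also differed in places. Of 21 anticodons with 5 or more regions, 20 had a median above 0. The signs of alanine AGC, aspartate GUC, phenylalanine GAA and proline UGG turned under a scaling tried, so no direction is given for them. Leucine genes with anticodon UAA had the highest, 2.12 over 6 regions, and those with CAA 0.63 over 10. In the UAA group the gaps were -0.38 at tL(UAA)L, 1.65 at tL(UAA)B1, 1.86 at tL(UAA)B2, 2.38 at tL(UAA)J, 2.77 at tL(UAA)K and 3.23 at tL(UAA)D. Of these 6 genes, tL(UAA)L alone had Brf1 above Bdp1, with values of 2.04 for Bdp1 and 2.42 for Brf1. At 0 min the group's median was 0.30. Arginine genes with ACG had gaps of 0.98, 1.13, 1.85, 1.99 and 2.97, with a median of 1.85, while the 8 with UCU had a median of 0.40. The 5 ACG gaps all lay above 0, and 4 of them were past 2-fold, where 36.5% of all tRNA regions had Bdp1 2-fold higher. Glutamate UUC genes had a median of 1.28 over 13 regions, lysine CUU genes 1.10 over 14 and valine AAC genes 1.09 over 14. Whether probes for nearly identical tRNA genes pick up each other's DNA was not tested.

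**Figure D4:**
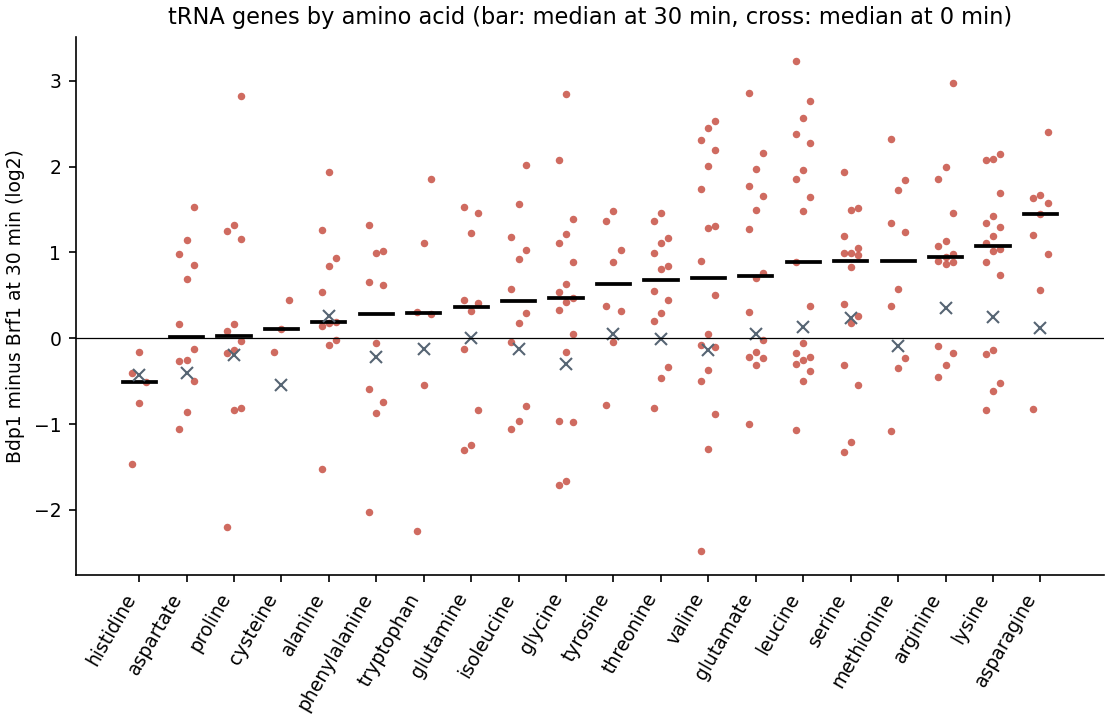
Gap at 30 min on the log2 scale for each region named for a tRNA gene (points), by amino acid from the lowest to the highest median (bars), with the median at 0 min as a cross. Histidine, at -0.50, is the family with a median below 0, and asparagine, at 1.45, the highest, while most families span both signs.

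Some long regions were divided into pieces with a value each, which shows how far the gap varies within a region on the same arrays. The 5 tRNA-named regions with 2 pieces differed by 0.44 to 1.54 between pieces, with a median of 0.78. In tS(UGA)E the pieces gave 1.93 and 1.49 and in tV(AAC)K1 2.31 and 1.74, so both pieces had Bdp1 higher. In tE(CUC)D they gave 0.76 and -0.02, in tP(UGG)L 1.15 and -0.03, and in tW(CCA)K 1.85 and 0.31. Over all 174 regions of 2 pieces the median difference was 0.73, with a range of 0.0024 to 2.96. Gaps of single regions up to 2.96 in size are thus within the range of differences seen between pieces of a region.

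ORF-named regions that face a tRNA gene had gaps close to those of the tRNA-named regions, and the upstream side had the higher median. Where the region lay on the upstream side of the tRNA gene, the side TFIIIB occupies, the median gap was 0.64 over 113 regions, with 41 past 2-fold for Bdp1 and 5 for Brf1. On the downstream side it was 0.42 over 113 regions, with 31 and 13. Over all regions, 12.7% were past 2-fold for Bdp1 and 9.38% for Brf1. At 0 min the medians of the upstream and downstream sides were 0.37 and 0.04, so the difference between the sides was present before treatment. ORF-named regions with a tRNA gene only on their other side had a median of 0.25 over 181, and those with no Pol III gene on either side -0.01 over 4423. Regions whose next gene is a tRNA gene thus had the larger gap. The side for which a region is named was itself read from these arrays. The contrast with regions whose tRNA gene lies on the other side is therefore not independent of that choice. Whether an LTR lies between such a region and the tRNA gene was not looked up.

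Named by the ORF beside them, the highest gaps facing tRNA genes were at HSP104, GAP1, RAD30 and TVS1, from 2.88 to 3.32, of 188 eligible regions. The region beside HSP104, which encodes a protein disaggregase, stood at 2.80 for Bdp1 and -0.52 for Brf1. That beside GAP1, the general amino acid permease gene, stood at 3.50 and 0.29, and its gap at 0 min was 1.12. Beside RAD30, the gene of DNA polymerase eta, the values were 3.56 and 0.57, and the gap at 0 min was 0.38. These 4 had a positive gap at 0 min, the largest being 1.69 beside HSP104. The 5 lowest were at POR1 (-2.62), GLC7 (-2.13), OMS1 (-1.88), TAH11 (-1.61) and YFR006W (-1.55). Beside POR1, which encodes the mitochondrial porin, Bdp1 stood at 0.71 and Brf1 at 3.33. Beside GLC7, the gene of the catalytic subunit of protein phosphatase 1, the values were 2.60 and 4.73, and the gap at 0 min was 0.37, of the opposite sign. Of these 5 regions, 4 already had a negative gap before treatment.

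The other Pol III genes did not share the direction of tRNA genes as a class. Their median gap was -0.24 over 6 regions and its sign turned under an alternative, with 0 regions past 2-fold for Bdp1 and 2 for Brf1. The region of SNR6, the gene of the U6 spliceosomal RNA, stood at 4.93 for Bdp1 and 3.96 for Brf1, with a gap of 0.97 that was 1.06 at 0 min. The region of SCR1, which encodes the RNA of the signal recognition particle, stood at 1.75 for Bdp1 and 3.68 for Brf1. At 0 min its values were 1.79 and 2.01, so its gap was -0.22 then and -1.93 at 30 min, and Brf1 was the protein that differed. RPR1, the gene of the RNA of RNase P, had values of 2.50 and 2.65, a gap of -0.15, which was -0.82 at 0 min.

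For 5S ribosomal RNA, the region RDN5-1 was bright on both arrays, at 5.60 for Bdp1 and 5.39 for Brf1. RDN5-2 stood at -0.15 and 1.00 and RDN5-3 at -0.29 and 0.04. Both RDN5-2 and RDN5-3 thus had little signal for Bdp1 at 30 min, and RDN5-2 had a gap of -1.14 that was -1.50 at 0 min. Beside further 5S genes, the regions of YLR159W and YLR161W stood at 3.66 and 1.96 for Bdp1 and at 5.74 and 4.10 for Brf1. Their gaps of -2.09 and -2.14 had the same sign at 0 min, -1.72 and -2.80. These 5S copies are near identical, so signals of separate copies may not be distinct. SNR52, a snoRNA gene, had no Bdp1 value at either time and a Brf1 value of -1.17 at 30 min. The region of PMD1, whose next gene is SNR52, gave 2.22 for Bdp1 and 0.38 for Brf1, and its gap of 1.84 was 2.13 at 0 min.

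LTRs had Bdp1 higher than Brf1 in the 4 families defined by their names, with medians of 1.21 for sigma, 0.47 for delta, 0.41 for tau and 0.20 for omega elements. The sign of omega turned under a scaling. Sigma elements are the LTRs of Ty3, which inserts at the start sites of Pol III genes, delta elements those of Ty1 and Ty2, and tau elements those of Ty4. All 13 sigma regions had a gap above 0, from 0.25 at YDRCSIGMA2 to 2.80 at YLRCSIGMA1, and 7 were past 2-fold for Bdp1 and 0 for Brf1. At 0 min the sigma median was 0.33. Delta, with 191 regions, had 60 past 2-fold for Bdp1 and 10 for Brf1. The shares over all LTRs were 31.8% and 4.29%, and over all regions 12.7% and 9.38%. All 10 LTRs with Brf1 2-fold higher were thus delta elements, which make up most of the class. Repeats of nearly the same sequence may share signal, which was not tested.

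The sigma elements with the highest gaps were bright for Bdp1. YLRCSIGMA1 stood at 4.52 for Bdp1 and 1.73 for Brf1, with 4.54 and 3.74 at 0 min. YBLCSIGMA1 stood at 3.41 and 0.81, with 2.58 and 2.24 at 0 min. In both, Brf1 was lower at 30 min and Bdp1 was level or higher. YORWSIGMA3 stood at 1.87 and 0.09, with a gap of 1.78 that was 1.79 at 0 min. The lowest, YDRCSIGMA2, was below both medians at -0.41 and -0.66.

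Of 152 eligible LTR regions, the 4 highest gaps were at YELCDELTA4 (3.09), YMLWDELTA6 (3.07), a piece of YDLCDELTA1 (2.81) and YLRCSIGMA1 (2.80). YMLWDELTA6 stood at 4.13 for Bdp1 and 1.06 for Brf1, and at 3.49 and 3.56 at 0 min. There the signals were close before treatment and 8.40-fold apart after it. YELCDELTA4 stood at 2.89 and -0.20, and its gap at 0 min was 1.41. The 4 lowest were YCRWDELTA13 (-2.03), YLRCDELTA8 (-1.45), YPRCDELTA13 (-1.41) and YMRCDELTA13 (-1.33). YLRCDELTA8 was bright for both, at 3.26 for Bdp1 and 4.71 for Brf1. The gaps of these 4 lay between -1.54 and -0.88 at 0 min, so Brf1 was already the higher subunit there.

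A count of bright regions, those with a value of 1 or more, shows in which class the proteins were seen apart. At tRNA genes 187 regions were bright for both proteins, 21 for Bdp1 alone, 13 for Brf1 alone and 20 for neither. At LTRs the numbers were 102, 42, 8 and 81. Bdp1 alone was thus bright in 18.0% of LTRs and Brf1 alone in 3.43%. Over all 5609 regions these shares were 8.04% and 5.62%. Those of tRNA genes, 8.71% and 5.39%, were close to the shares of all regions. Beside tRNA genes 151 regions were bright for both, 27 for Bdp1 alone (11.9%) and 10 for Brf1 alone (4.42%).

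Because the Brf1 array was dim, gaps were also read within bins of a level taken outside the comparison, the mean of the C160 and Tau95 values at 0 min. Bins under 20 regions were left out. At tRNA genes the median gap at 30 min was 0.30 at a level of 0 to 1, 0.61 at 1 to 2, 0.44 at 2 to 3, 0.98 at 3 to 4 and 0.90 above 4. In other ORF-named regions of the same bins it was 0.11, 0.21, 0.28, 0.30 and -0.35. In all 5 bins tRNA genes were higher than other ORF-named regions. At 0 min the tRNA medians were -0.52, -0.20, -0.11, 0.20 and 0.14, and those of other ORF-named regions 0.08, 0.22, 0.25, 0.17 and 0.21. Before treatment, tRNA genes were thus lower than other regions of like level in 4 of 5 bins. LTR medians at 30 min ran from 0.39 at -1 to 0 to 0.62 at 2 to 3, with 0.55 and 0.47 between, with no steady trend. The brightest bin of other ORF-named regions held 41, and that at 3 to 4 held 61.

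**Figure D5:**
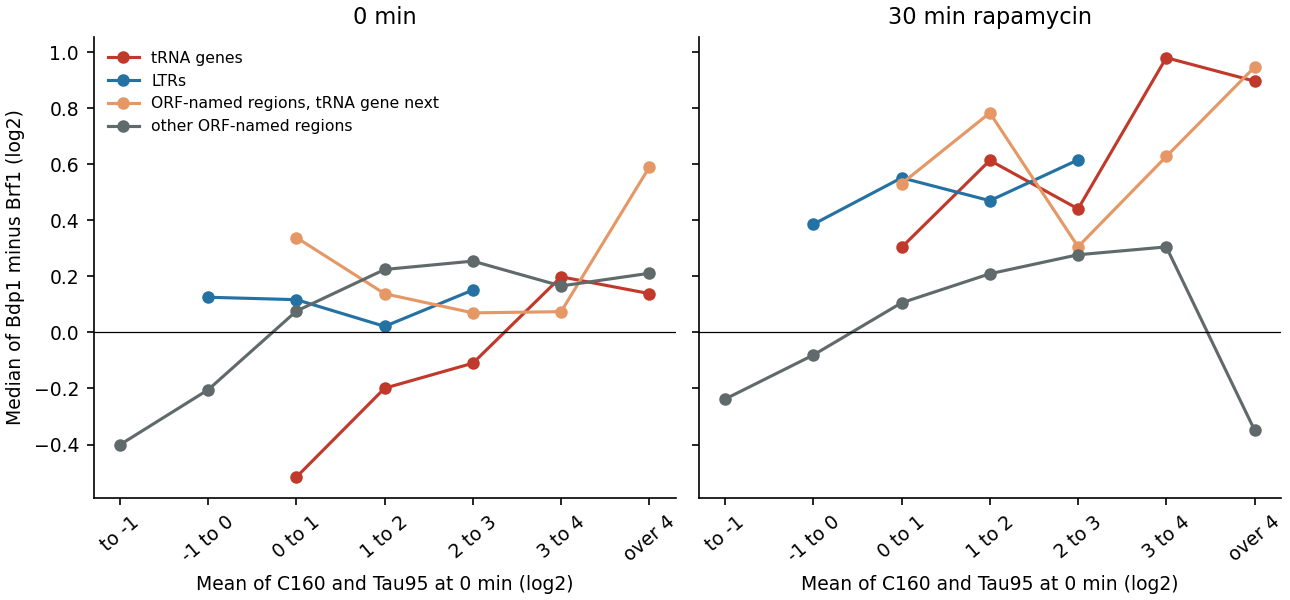
Median gap on the log2 scale (y axis) at 0 min (left) and 30 min (right) in bins of the mean of C160 and Tau95 at 0 min (x axis, log2), for 4 classes; bins under 20 regions are not drawn. At 30 min tRNA genes lie above other ORF-named regions in each of the 5 bins drawn for both, with 0.98 against 0.30 at 3 to 4, while at 0 min they lie below in 4 of 5.

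Large gaps of both signs were also found outside the regions of Pol III genes, of LTRs and beside tRNA genes. Such regions may still border a Pol III gene or an LTR, as only those whose next gene is a tRNA gene were set apart. Among 1379 eligible other regions, the highest were beside GIN4 (2.84), NPP2 (2.47), a piece of SWH1 (2.43), ISC10 (2.32) and YPR126C (2.22). Beside GIN4, the gene of a kinase of the septin ring, Bdp1 stood at 1.78 and Brf1 at -1.06. Beside ISC10, a sporulation gene, both were bright at 5.89 and 3.56, as were C160 and Tau95 at 0 min, at 5.32 and 4.02. All 5 regions had a positive gap at 0 min, from 0.83 to 1.27. The lowest were beside RET3 (-3.06), UGA3 (-2.76), VPS55 (-2.71), MGM101 (-2.56) and SHE10 (-2.47). Beside RET3, the gene of a COPI coat subunit, Bdp1 stood at -0.87 and Brf1 at 2.19, while both were near -1 at 0 min, at -0.99 and -0.94. The gap there was present only at 30 min, whereas beside UGA3 it was -2.44 at 0 min. The region of the 35S ribosomal RNA gene RDN37-1, transcribed by Pol I, stood at 7.41 for Bdp1 and 5.67 for Brf1, and no Bdp1 value was given for it at 0 min.

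Some regions cannot have a gap. A Bdp1 value without a Brf1 value was given for 430 regions at 30 min, a Brf1 value alone for 151, and neither for 209. The median Bdp1 value of the regions lacking Brf1 was -1.03, so these were mostly dim. Of the 250 tRNA-named regions, 9 had no gap, 4 of them for want of Brf1 alone. At the lysine gene tK(UUU)G1 Bdp1 was bright at 3.91, and Brf1 had stood at 2.88 at 0 min. The isoleucine gene tI(AAU)B and a piece of tV(AAC)G3 were dim at -1.63 and -1.12.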

How the data were processed

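The deposited table holds log2 values, 1 per region and array. Per the labels, enrichment ratios of replicates were scaled so that the median of loci not bound by the machinery was 1. Base 2 was inferred from the value steps. The sources used here give no log base, background correction, array build or reference. Each of the 4 arrays was centred on its median of all regions, the gap computed per region, and medians, quartiles and counts past 2-fold taken per class. No test was run. Named genes were the 8 (tRNA), 4 (LTR) and 5 (ORF-named beside tRNA genes, all other) highest and lowest gaps among regions with a value of 1 or more on at least 1 of the arrays compared, every other Pol III region, and the ends of each amino acid family described. Of these, 1 ORF-named region is not reported here. Members, classes and lists were chosen with earlier results of these data known.

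A region is named for the gene or element on its lower-coordinate side, as the arrays themselves showed. Symbols and neighbours came from a RefSeq R64 gene table, which matched 5559 of 5806 ORF-named regions. The table was not used to place LTRs, so their neighbours were not looked up. The planned promoter sequence description was not run, and no sequence or coordinate is printed. Regions planned as duplicates were pieces of a longer region. Alternatives were other centrings, equal spread, quantile normalization within each time, averaged pieces, filters on level and thresholds of 1.5-fold and 3-fold. The scripts were tested on simulated data and used Python 3.11.15, pandas 2.3.3, numpy 2.4.6 and matplotlib 3.10.9.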

Additional observations from a re-analysis of the deposited data

Results flagged for a closer look

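In the 6 cases given here the sign of the gap at 30 min was opposite to that at 0 min. Each protein and time had 1 array, and the difference was not tested. The 6 are no full count of sign changes. Opposite signs were found in 22 of the 88 tRNA regions with Bdp1 2-fold or more higher, and in 45 of the 136 within 2-fold. The median gap of tRNA genes was 0.57 at 30 min and -0.0048 at 0 min, the latter being close to 0. For centromere regions these values were 0.36 and -0.51, and for regions of Pol II snRNA and snoRNA genes 0.14 and -0.11. Among single regions, tG(GCC)J1 had a gap of 2.84 after -0.33, YMLWDELTA6 one of 3.07 after -0.06, and the region beside GLC7 one of -2.13 after 0.37. The sign at 0 min depended on the scaling in 4 of these cases. For tRNA genes it was positive without centring (0.09), when centred on ORF-named regions away from Pol III genes (0.05) and on ribosomal protein genes (0.18). For YMLWDELTA6 it was positive without centring (0.03) and on ribosomal protein genes (0.12), and for Pol II snRNA and snoRNA genes on the latter (0.08). For GLC7 it was negative with equal spread (-0.52). Centromeres and tG(GCC)J1 kept a negative gap at 0 min under the 5 scalings tried.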

How the results depend on the processing

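Over 8 alternatives the median gap at 30 min stayed above 0 at tRNA genes (0.33 to 0.84), LTRs (0.28 to 0.52) and regions beside tRNA genes (0.32 to 0.64), and that of the other 6 Pol III genes ran from -0.41 to 0.03. Quantile normalization gave 0.33 for tRNA genes and 0.28 for LTRs, with 12.9% and 8.58% of them 2-fold higher for Brf1, and gap differences between the times of 0.37 at tRNA genes and -0.052 at other ORF-named regions. Equal spread gave 12.03% and 7.73%, and gap differences of 1.47 (tRNA), 0.86 (LTR), 1.16 (beside tRNA genes), 0.84 (other Pol III) and 0.13 (other ORF-named). Centring on ribosomal protein genes gave gap differences of 0.32, 0.24 and 0.18 for tRNA genes, LTRs and regions beside tRNA genes and -0.11 for other ORF-named regions. For the latter the gap difference was 0.017 without centring, 0.058 for values of -1 or more and -0.0035 for regions bright on C160 and Tau95, where the median gap was 0.21 and 15.8% were 2-fold higher for Bdp1. Their median gap was 0.049 when centred on regions away from Pol III genes and 0.072 for values of -1 or more. At 1.5-fold, Brf1 was higher in 14.9% of tRNA, 12.9% of LTR, 13.3% of tRNA-side and 23.3% of other ORF-named regions, and Bdp1 in 49.6% and 22.4% of the last 2 classes. At 3-fold, Bdp1 was higher in 16.2%, 12.9%, 17.7% and 2.20% and Brf1 in 2.49%, 0.43%, 1.77% and 1.93%. No paired analysis was possible because each protein and time has 1 array. For the same reason no replicate could be left out. The dim Brf1 array limits low values most.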

Other observations

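Centromere regions had a median gap of 0.36 over 15 regions, with 3 past 2-fold for Bdp1 (CEN1 at 1.88, CEN11 at 1.26 and CEN10 at 1.03) and 0 for Brf1. Their median was -0.51 at 0 min. Over all regions, 12.7% were past 2-fold for Bdp1 and 9.38% for Brf1. Regions named for Pol II snRNA and snoRNA genes had a median of 0.14 over 34, with 6 past 2-fold for Bdp1 and 2 for Brf1. Among them LSR1, the gene of the U2 spliceosomal RNA, had a gap of 1.71, SNR67 one of 1.58 and SNR48 one of -2.15.

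Regions beside genes of the Pol III machinery had a median gap of -0.37 over 20, with 2 past 2-fold for Bdp1 and 6 for Brf1, and of -0.32 over 21 at 0 min. The 6 were beside RPO31 (-1.85), which encodes C160, MAF1 (-1.74), RPC31 (-1.40), TFC7 (-1.25), TFC8 (-1.09) and RPC37 (-1.08), and the 2 beside RPC17 (1.57), which also faces a tRNA gene, and RPC53 (1.00). The regions beside BRF1, BDP1 and SPT15, the genes of the TFIIIB subunits, had gaps of -0.71, -0.55 and -0.09. Every slide carried DNA of a strain lacking MAF1, and Brf1, Bdp1 and C160 were tagged. Whether this bears on the values beside their genes was not tested. Ribosomal protein genes had a median of -0.06 over 115, with 17 past 2-fold in each direction. Regions beside genes of glycolysis had a median of 0.31 over 23, with 2 past 2-fold for Bdp1, TDH1 at 1.27 and PFK1 at 1.25, and 1 for Brf1, a piece of TDH2 at -1.03. Over all regions, 12.7% were past 2-fold for Bdp1 and 9.38% for Brf1. The glycolysis counts lay under both shares, and the count for ribosomal protein genes was close to that for Bdp1.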
